A study of Arabidopsis thaliana with 9 samples.

Results

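Expansins are encoded in *Arabidopsis thaliana* by a superfamily of α-expansins (*EXPA*), β-expansins (*EXPB*) and expansin-like genes (*EXLA* and *EXLB*). Its 35 members (25 *EXPA*, 6 *EXPB*, 3 *EXLA* and 1 *EXLB*) were taken by locus identifier from the 33341 genes of a transcriptome table. No cut on measured values was used, but the members were chosen with earlier results of these data known. Whole 7-day-old seedlings of 3 genotypes were compared. These were *exg1-1*, a T-DNA line of *EXG1* (AT3G08030, spelled EVG1 in the sample labels), *rlp44-3*, a T-DNA line of the gene for the receptor-like protein RLP44 (AT3G49750), and the wild-type Col-0 as the reference of both. Each genotype had 3 libraries, and every seedling grew upright on agar at 20 °C with 8 h of light and 16 h of dark, after 2 days of cold at 4 °C. None of the seedlings was wounded. Each mutant was represented by a single insertion allele.

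Expansins are secreted into the cell wall, where they bind wall polysaccharides and let them slip past each other without cutting them. They act best at acid pH, so a growing cell loosens its wall when its plasma membrane pumps protons outwards, which is known as acid growth. α-Expansins are the members with the best described role in the growth of cells of dicots. β-Expansins are best known from the pollen of grasses, and the expansin-like proteins are recognised by sequence, with no wall-loosening activity established for them.

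The promoters of 3 members are shown, because *EXPB3* had the largest difference among the abundant members and because *EXPA7* and *EXPA18* are the pair of α-expansins known from root hairs. Each line is the 250 bases before the annotated start, 5′ to 3′ on the gene's own strand, from RefSeq's TAIR10.1 at chr4:14002125-14002374 (minus strand) for *EXPB3*, chr1:4276255-4276504 (plus strand) for *EXPA7* and chr1:23331313-23331562 (plus strand) for *EXPA18*. The window of *EXPA18* lies partly within another gene, AT1G62978. Capitals mark matches on either strand to CGTGCG (a brassinosteroid response element), TGTCTC or TGTCGG (auxin response elements) and the root hair element, which overlaps CGTGCG in *EXPA7* and in *EXPA18*.
EXPB3: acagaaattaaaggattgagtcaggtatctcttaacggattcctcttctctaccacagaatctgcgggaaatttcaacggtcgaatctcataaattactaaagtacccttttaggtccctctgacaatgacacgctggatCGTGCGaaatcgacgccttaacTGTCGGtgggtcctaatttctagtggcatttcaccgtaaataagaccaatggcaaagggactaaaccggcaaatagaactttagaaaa
EXPA7: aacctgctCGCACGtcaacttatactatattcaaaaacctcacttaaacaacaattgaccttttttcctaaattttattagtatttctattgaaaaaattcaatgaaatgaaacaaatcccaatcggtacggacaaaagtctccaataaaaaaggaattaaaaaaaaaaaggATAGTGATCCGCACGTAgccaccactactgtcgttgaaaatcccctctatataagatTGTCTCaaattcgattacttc
EXPA18: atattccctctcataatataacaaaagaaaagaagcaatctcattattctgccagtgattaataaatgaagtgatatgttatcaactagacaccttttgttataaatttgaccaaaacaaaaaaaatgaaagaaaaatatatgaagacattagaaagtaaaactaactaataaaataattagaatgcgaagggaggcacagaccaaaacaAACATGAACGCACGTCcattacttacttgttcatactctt

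CGTGCG was found in 3 of the 22 promoters of expansin genes with sufficient values (*EXPA7*, *EXPA18* and *EXPB3*) and in 1.68% of 18782 promoters of protein-coding genes. The root hair element was found in *EXPA7* and *EXPA18* alone among the 22, and in 0.708% of all promoters. These genes are already known from root hairs, so a match to a root hair element there is no independent result. The only CGTGCG of *EXPA18* lies within that element. TGTCGG was found in *EXPB3* only, against 4.69% of all promoters, and TGTCTC in *EXPA5*, *EXPA6*, *EXPA7* and *EXPA10*, against 10.7%. A further brassinosteroid element, CGTGTG, was found in *EXPA1*, *EXPA6* and *EXLA2*, against 5.47%, and the G-box CACGTG in none of the 22, against 7.54%. A match describes the letters and says nothing about whether a factor binds there.

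The deposited values were not counts, although the table is named as raw counts. They were fitted values on the scale of reads, and the 3 columns of a genotype were multiples of each other over all genes. *EXPB3* illustrates this, with 904, 1098 and 1128 in the *exg1-1* columns, 1747, 1724 and 1806 in the *rlp44-3* columns, and 1649, 1464 and 1682 in the Col-0 columns. The columns of a genotype carried a factor for the library and no spread between replicates, so each gene has 1 value per genotype, and neither a standard deviation nor a p-value could be given. The columns summed to between 10396228 and 12971468 in *exg1-1*, between 11015026 and 11535985 in *rlp44-3* and between 8364383 and 9606982 in Col-0. Values are given as mean reads per library before scaling, or, after scaling between genotypes, as CPM relative to the Col-0 total (fitted CPM). The error given with a log2 ratio is a counting error only, and the error between replicates, which the table does not hold, would be at least as large. *EXG1* had 392 reads per library in *exg1-1*, 1059 in *rlp44-3* and 943 in Col-0. *RLP44* had 34.9 reads per library in *exg1-1*, 0.358 in *rlp44-3* and 34.0 in Col-0, so both mutants were low in the gene named in their label.

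Of the 35 members, 26 had values and 22 reached at least 10 in all columns of at least 1 genotype, namely 17 *EXPA*, 2 *EXPB*, 2 *EXLA* and 1 *EXLB* gene. No value was given in any column for *EXPB4*, *EXPB5*, *EXPB6* and *EXPA21* to *EXPA26*. *EXPA21* to *EXPA26* lie side by side on chromosome 5, between 15726243 and 15740605 in TAIR10.1. Within this cluster the coding sequences of *EXPA22* and *EXPA26* were 97.7% identical and those of *EXPA23* and *EXPA25* were 97.5% identical. Another 4 members had values below the threshold, *EXPA2*, *EXPA12*, *EXPB2* and *EXLA3*, with 0.184 to 9.21 reads per library. *EXPA2*, known from germinating seeds, was just below it with 9.18 reads per library in *exg1-1*, 2.34 in *rlp44-3* and 9.21 in Col-0. *EXPA16* was just above it with 16.2 reads per library in *exg1-1*, 11.0 in *rlp44-3* and 12.6 in Col-0. *EXLB1* passed only through Col-0, with 5.33 reads per library in *exg1-1*, 9.05 in *rlp44-3* and 15.6 in Col-0. A gene that passes only through the genotype where it is high has to be lower in the others.

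None of the 22 genes shared an exact run of 75 bases with another member, while 4 genes of the chromosome 5 cluster did. The most alike of the pairs among the 22 were *EXLA1* and *EXLA2*, with 84.3% identity, and *EXPA4* and *EXPA16*, with 81.1%. *EXPA7*, *EXPA18*, *EXPA20* and *EXLA1* overlap a gene on the other strand, and none of the sources used here gives the strand setting of the counting. The values of these 4 genes may therefore include reads of their neighbours.

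A small number of members made up most of the family's transcripts. Per kb of exon, *EXPA1*, which is known to act in the walls of guard cells, had the highest level in all 3 genotypes, at 127 fitted CPM per kb in *exg1-1*, 120 in *rlp44-3* and 153 in Col-0. *EXPB3* had 43.0 fitted CPM per kb in *exg1-1*, 74.3 in *rlp44-3* and 83.8 in Col-0. *EXPA8* had 59.6 in *exg1-1*, 74.2 in *rlp44-3* and 81.1 in Col-0, and *EXPA6* had 55.9 in *exg1-1*, 63.5 in *rlp44-3* and 61.5 in Col-0. *EXPB3* was thus level with *EXPA8* behind *EXPA1* in *rlp44-3* and Col-0, but below both *EXPA8* and *EXPA6* in *exg1-1*. *EXPA16* was the lowest *EXPA* gene of the 22 in each genotype, at 1.12 in *exg1-1*, 0.776 in *rlp44-3* and 1.101 in Col-0, and *EXLB1* had 0.411 fitted CPM per kb in *exg1-1*, 0.715 in *rlp44-3* and 1.53 in Col-0. The 5 genes with the highest fitted CPM held 71.2% of the family's total in *exg1-1*, 72.9% in *rlp44-3* and 72.8% in Col-0.

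**Figure D1:**
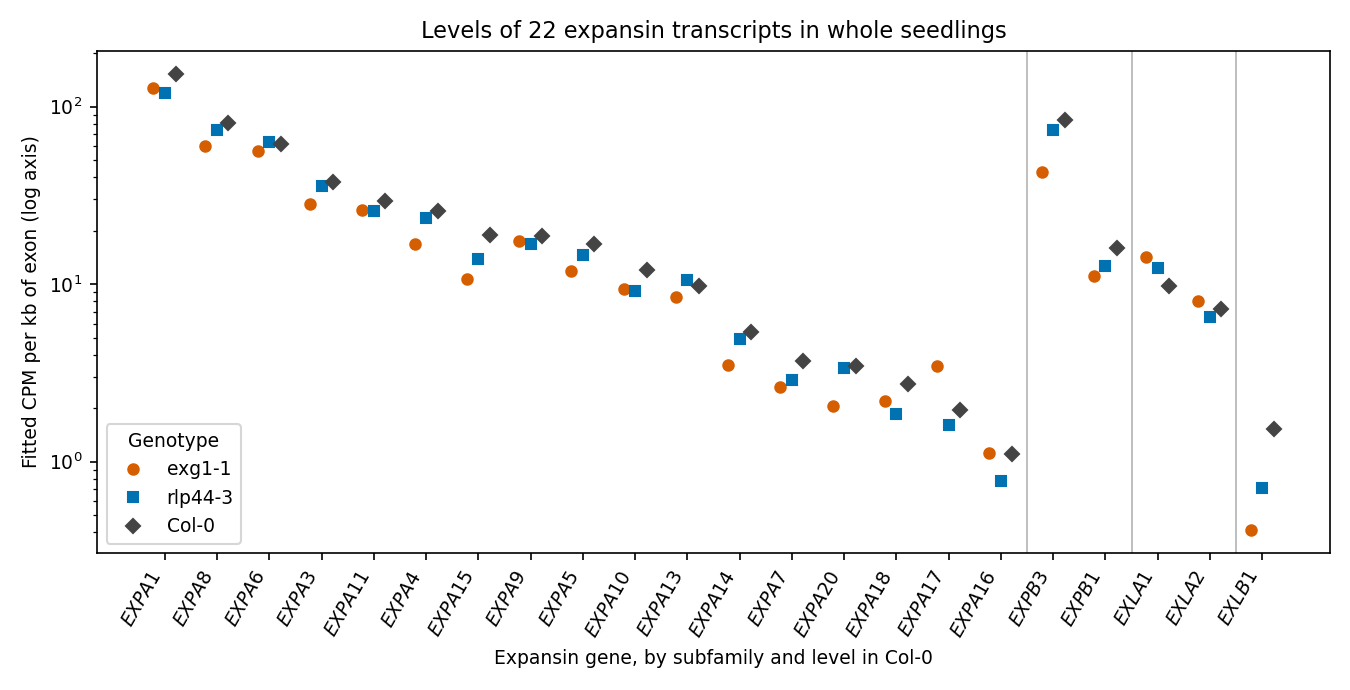
Level of each of the 22 expansin genes in fitted CPM per kb of exon (vertical, log axis) in *exg1-1* (circles), *rlp44-3* (squares) and Col-0 (diamonds), with genes ordered by subfamily and by their level in Col-0. *EXPA1* is highest in every genotype, and *EXPB3* in *exg1-1* (43.0) lies well below *rlp44-3* (74.3) and Col-0 (83.8).

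The first comparison asked how the transcripts of *exg1-1* seedlings differ from those of Col-0. Most expansin transcripts were lower in *exg1-1*. Of the 22 genes, 18 were lower and 4 higher, with a median log2 ratio of −0.39, whereas 50.9% of all 19281 genes kept were lower, with a median of −0.0049. A difference of at least 1.5-fold was reached downwards by 6 genes (*EXPA4*, *EXPA14*, *EXPA15*, *EXPA20*, *EXPB3* and *EXLB1*) and upwards by *EXPA17*, against 4.94% and 2.95% of all genes. *EXLB1* passed the filter only through Col-0, and with at least 10 required in every column 5 genes were 1.5-fold lower. Lower by at least 0.322 on the log2 scale were 12 genes, against 12.7% of all genes. Among the 14 members with a mean of at least 100 reads per library, where counting error is small, 13 were lower and *EXLA1* was higher, against 44.6% lower of the 12076 genes at that level. Of these 14, 3 were at least 1.5-fold lower, against 1.19% of genes at that level. Summed over the 22 genes, the family had 709 fitted CPM in *exg1-1* and 941 in Col-0. Since the study had itself picked out members of this family in the same libraries, the direction of the family is not independent of that choice.

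*EXPB3* (AT4G28250) had the largest difference among the abundant members. It had 89.9 fitted CPM in *exg1-1* and 175 in Col-0, a log2 ratio of −0.96 with a counting error of 0.03. Its share of the family's transcripts was 12.7% in *exg1-1* and 18.6% in Col-0, and it was 18.8% in *rlp44-3*. *EXPB1*, its closest relative with 78.2% identity, had 17.0 fitted CPM in *exg1-1* and 24.4 in Col-0 (log2 ratio −0.52, counting error 0.08). Both β-expansins above the filter were therefore lower, the more abundant of them by more.

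Among the α-expansins, 15 of 17 were lower, against 50.9% of all genes, with a median log2 ratio of −0.36 and a range of −0.82 to 0.82. *EXPA15* (AT2G03090) had 15.3 fitted CPM in *exg1-1* and 27.1 in Col-0, a log2 ratio of −0.82 with a counting error of 0.08. *EXPA4* (AT2G39700) had 25.2 fitted CPM in *exg1-1* and 38.6 in Col-0 (log2 ratio −0.61, counting error 0.07). The less abundant *EXPA20* followed at 2.36 fitted CPM in *exg1-1* and 3.94 in Col-0, a log2 ratio of −0.74 with a counting error of 0.21. *EXPA5*, which acts downstream of brassinosteroids in growth, had 16.8 fitted CPM in *exg1-1* and 23.9 in Col-0 (log2 ratio −0.50, counting error 0.08). *EXPA8* (−0.44), *EXPA3* (−0.41) and *EXPA10* (−0.36), the last of them known from the growth of leaves, were among the 12 genes lower by at least 0.322. The most abundant member, *EXPA1* (AT1G69530), had 196 fitted CPM in *exg1-1* and 238 in Col-0, a log2 ratio of −0.27 with a counting error of 0.02. *EXPA13* (−0.20), *EXPA11* (−0.16), *EXPA6* (−0.14) and *EXPA9* (−0.09) differed least among the abundant members, and for *EXPA13* and *EXPA9* the 95% counting interval included no difference. *EXPA16* had 1.40 fitted CPM in *exg1-1* and 1.38 in Col-0 (log2 ratio 0.02, counting error 0.31), and it turned slightly lower under upper quartile scaling and under library totals.

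A pair of α-expansins known from lateral root emergence were apart in direction. *EXPA14* and *EXPA17* both act downstream of the transcription factor LBD18, and *EXPA17* works in the tissue that overlies a new lateral root. *EXPA17* (AT4G01630) had 3.78 fitted CPM in *exg1-1* and 2.14 in Col-0, a log2 ratio of 0.82 with a counting error of 0.23, which made it the only gene of the 22 that was 1.5-fold higher. In reads per library it had 43.9 in *exg1-1* and 19.5 in Col-0. *EXPA14* (AT5G56320) had 5.95 fitted CPM in *exg1-1* and 9.20 in Col-0 (log2 ratio −0.63, counting error 0.14). *EXPA7*, *EXPA16*, *EXPA17*, *EXPA18* and *EXPA20* had few reads, and their counting error alone was 0.20 to 0.31.

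Of the expansin-like genes, the 2 *EXLA* genes above the filter were higher and *EXLB1* was lower. *EXLA1* (AT3G45970) had 15.1 fitted CPM in *exg1-1* and 10.4 in Col-0, a log2 ratio of 0.53 with a counting error of 0.11, and it overlaps a gene on the other strand. *EXLA2*, known from the elongation of hypocotyls and from the response to a fungal pathogen, had 9.05 fitted CPM in *exg1-1* and 8.11 in Col-0 (log2 ratio 0.16, counting error 0.13). Its 95% counting interval included no difference. *EXLB1* (AT4G17030) had 0.459 fitted CPM in *exg1-1* and 1.71 in Col-0, a log2 ratio of −1.89 with a counting error of 0.42, on a small number of reads.

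**Figure D2:**
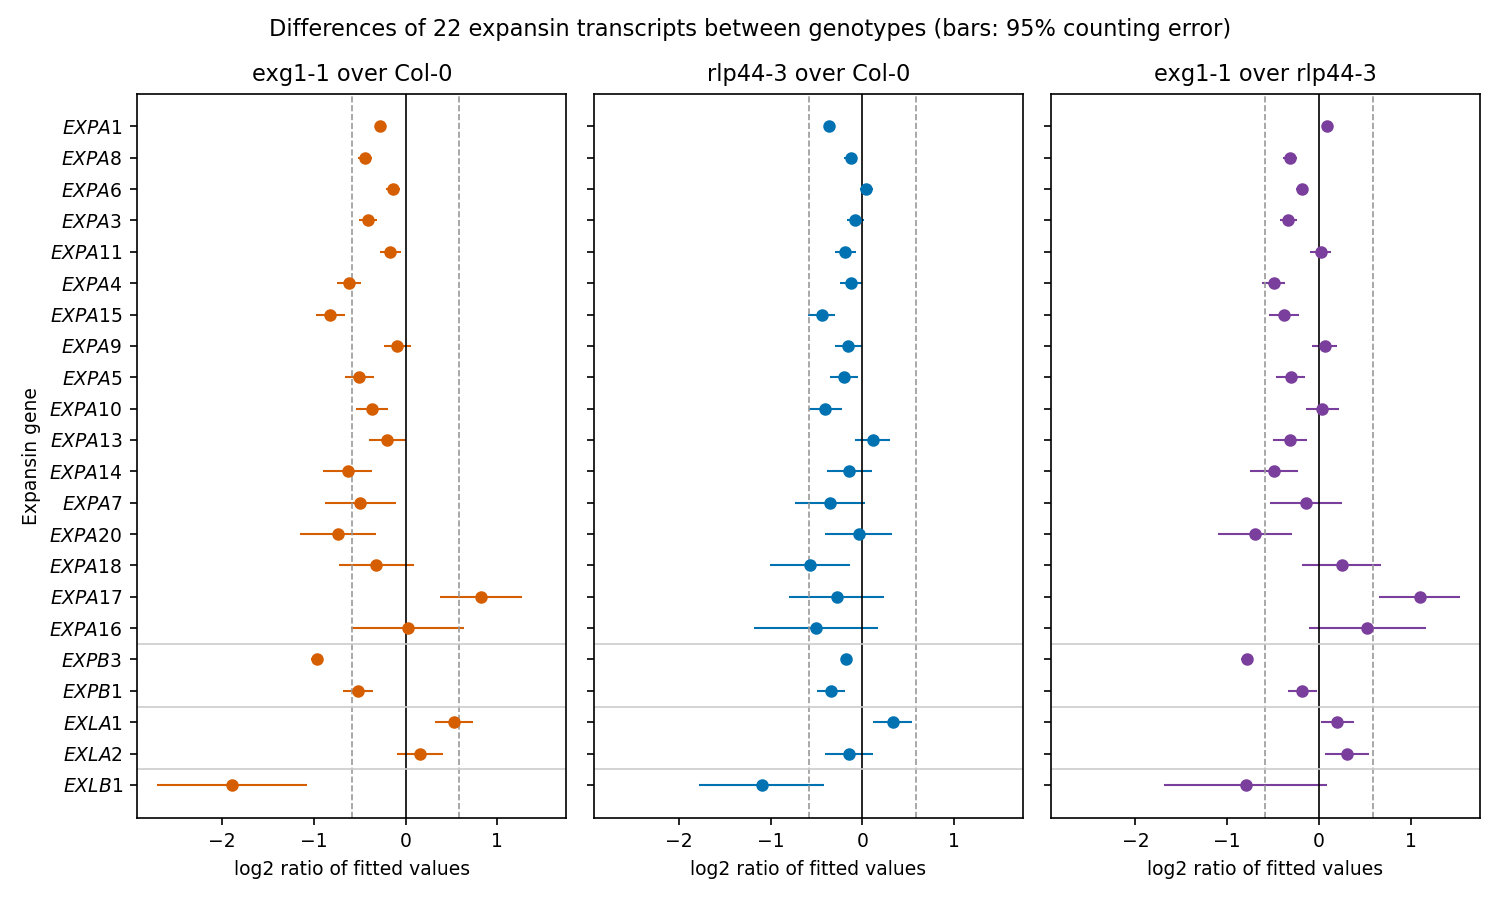
Log2 ratio of each of the 22 expansin genes (horizontal) for *exg1-1* over Col-0, *rlp44-3* over Col-0 and *exg1-1* over *rlp44-3*, with genes down the page in the order of the plot of levels, bars for 95% counting intervals and dashed lines at 1.5-fold in either direction. *EXPB3* (−0.96) and *EXPA15* (−0.82) lie beyond the dashed line on the left with narrow bars in *exg1-1*, *EXPA17* (0.82) lies beyond it on the right, and in *rlp44-3* only *EXLB1* (−1.095) is beyond it.

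The second comparison asked the same of *rlp44-3*. Here too most expansin transcripts were lower. Of the 22 genes, 19 were lower and 3 higher, with a median log2 ratio of −0.18, whereas 50.1% of all genes were lower, with a median of −0.00057. Only *EXLB1* was at least 1.5-fold lower and none was 1.5-fold higher, against 2.73% and 2.07% of all genes. *EXLB1* passed the filter only through Col-0, so it had to be lower, and with at least 10 required in every column the count was 0. Lower by at least 0.322 on the log2 scale were 8 genes, against 7.65% of all genes. Among the 14 members with a mean of at least 100 reads per library, 11 were lower, against 47.8% of genes at that level, and none of them was 1.5-fold lower, against 0.696%. The family summed to 828 fitted CPM in *rlp44-3* and 941 in Col-0. The Col-0 values are the same as those set against *exg1-1*, so both sets of ratios share their denominator.

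*EXPA15* had the largest difference among the members with a mean of at least 100 reads per library, at 19.9 fitted CPM in *rlp44-3* and 27.1 in Col-0 (log2 ratio −0.44, counting error 0.08). *EXPA10* had 14.3 fitted CPM in *rlp44-3* and 18.9 in Col-0 (log2 ratio −0.40, counting error 0.09). *EXPA1* had 185 fitted CPM in *rlp44-3* and 238 in Col-0, a log2 ratio of −0.36 with a counting error of 0.03, and *EXPB1* had a log2 ratio of −0.34 with a counting error of 0.08. *EXPB3*, by contrast, had 155 fitted CPM in *rlp44-3* and 175 in Col-0, a log2 ratio of −0.17 with a counting error of 0.03. *EXPA4* (−0.12), *EXPA8* (−0.13), *EXPA14* (−0.14), *EXPA3* (−0.08) and *EXPA20* (−0.04) had ratios nearer to 0 in *rlp44-3*, where each had −0.41 or lower in *exg1-1*. Except for *EXPA8*, their 95% counting intervals in *rlp44-3* included no difference. *EXPA6* and *EXPA13* were slightly higher, with log2 ratios of 0.05 and 0.12, and 95% counting intervals that included no difference. *EXLA1* was the highest of the 22 relative to Col-0, with 13.1 fitted CPM in *rlp44-3* and 10.4 in Col-0 (log2 ratio 0.33, counting error 0.11). *EXPA5* (−0.20), *EXPA11* (−0.18) and *EXPA9* (−0.15) were slightly lower. *EXPA16* had 0.971 fitted CPM in *rlp44-3* and 1.38 in Col-0 (log2 ratio −0.50, counting error 0.34), with an interval that included no difference. *EXLA2* had a log2 ratio of −0.14 and *EXPA17* of −0.28, each with a counting interval that included no difference. *EXLB1* had 0.798 fitted CPM in *rlp44-3* and 1.71 in Col-0 (log2 ratio −1.095, counting error 0.35).

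*EXPA7* and *EXPA18*, the root hair pair whose promoters are printed above, were among the lower members in both mutants. *EXPA7* (AT1G12560) had 2.94 fitted CPM in *exg1-1*, 3.24 in *rlp44-3* and 4.13 in Col-0, with log2 ratios to Col-0 of −0.49 in *exg1-1* (counting error 0.20) and −0.35 in *rlp44-3* (counting error 0.19). *EXPA18* (AT1G62980) had 2.76 fitted CPM in *exg1-1*, 2.32 in *rlp44-3* and 3.45 in Col-0, with log2 ratios of −0.32 in *exg1-1* (counting error 0.21) and −0.57 in *rlp44-3* (counting error 0.22). At 26.3 to 37.7 reads per library, the 95% counting intervals of *EXPA18* in *exg1-1* and of *EXPA7* in *rlp44-3* included no difference.

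**Figure D3:**
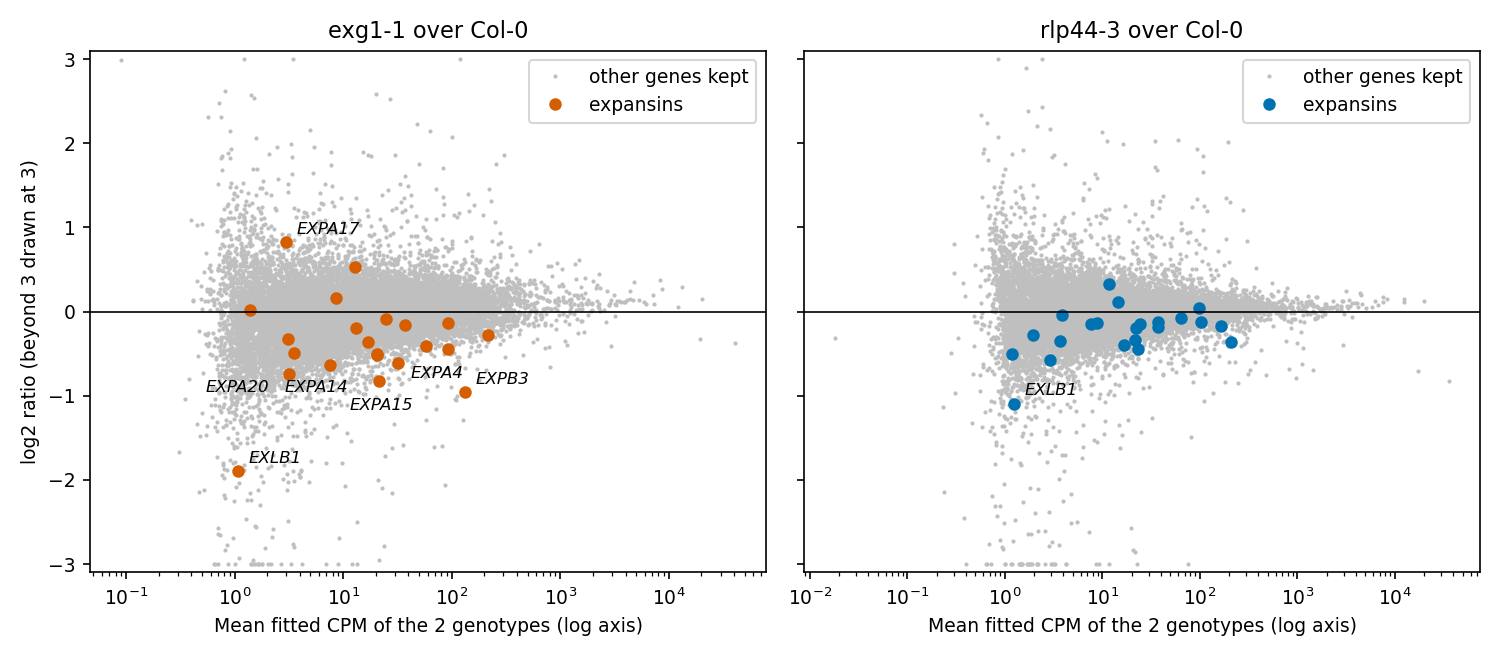
Log2 ratio (vertical) against the mean fitted CPM of the genotypes compared (horizontal, log axis) for *exg1-1* over Col-0 and *rlp44-3* over Col-0, with expansins in colour, all other genes kept in grey, and names on expansins at least 1.5-fold apart. Grey points narrow around 0 with rising level, and *EXPB3* in *exg1-1* lies at −0.96 where most genes are near 0.

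The mutants were also set directly against each other. In *exg1-1* relative to *rlp44-3*, 13 of the 22 genes (59.1%) were lower and 9 higher, with a median log2 ratio of −0.18. Of all genes, 50% were lower, with a median of −0.00009, so the count of lower members was near the share over all genes. *EXPB3*, *EXPA20* and *EXLB1* were at least 1.5-fold lower in *exg1-1*, against 3.93% of all genes, and *EXPA17* was 1.5-fold higher, against 2.9%. Lower by at least 0.322 on the log2 scale were 7 genes, against 11.5% of all genes. *EXPB3* had 89.9 fitted CPM in *exg1-1* and 155 in *rlp44-3*, a log2 ratio of −0.79 with a counting error of 0.03. *EXPA20* had a log2 ratio of −0.70 (counting error 0.20), while *EXPA4* and *EXPA14* each had −0.49 (counting errors 0.06 and 0.13). *EXLB1* had a log2 ratio of −0.80 with a counting error of 0.45, and its 95% counting interval included no difference. *EXPA15* (−0.38), *EXPA3* (−0.33), *EXPA8* (−0.32), *EXPA13* (−0.31), *EXPA5* (−0.30), *EXPA6* (−0.18), *EXPB1* (−0.18) and *EXPA7* (−0.14) were lower by smaller amounts, and for *EXPA7* the counting interval included no difference. *EXPA17* had 3.78 fitted CPM in *exg1-1* and 1.76 in *rlp44-3*, which is 114% higher in *exg1-1* (counting error of the log2 ratio 0.22). *EXLA2* (log2 ratio 0.30, counting error 0.12) and *EXLA1* (log2 ratio 0.20, counting error 0.09) were higher by smaller amounts. *EXPA16* (log2 ratio 0.53, counting error 0.33) and *EXPA18* (log2 ratio 0.25, counting error 0.22) were also higher, with counting intervals that included no difference. *EXPA1* (0.08), *EXPA10* (0.04), *EXPA11* (0.02) and *EXPA9* (0.06) were nearly level between the mutants, and *EXPA10* and *EXPA11* changed sign under upper quartile scaling and under library totals.

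Acid growth also needs proton pumps and the proteins that switch them on and off. For comparison with the lists below, 50.9% of all genes kept were lower in *exg1-1* and 50.1% in *rlp44-3*. Of the 11 plasma membrane proton pumps (*AHA1* to *AHA11*), 9 were kept, of which 5 were lower and 4 higher in *exg1-1*, with a median log2 ratio of −0.16, and 4 were lower and 5 higher in *rlp44-3*, with a median of 0.06. *AHA2*, the most abundant pump, had 481 fitted CPM in *exg1-1*, 573 in *rlp44-3* and 539 in Col-0. *AHA11* had the highest log2 ratio of the pumps in *exg1-1*, at 0.40, and *AHA7* the lowest, at −0.61. The small SAUR proteins SAUR19 to SAUR24 keep the pumps active by inhibiting the PP2C.D phosphatases. Their 6 genes had a median log2 ratio of −0.41 in *exg1-1*, where 5 were lower, and of −0.34 in *rlp44-3*, where 4 were lower. *SAUR20* had 8.76 fitted CPM in *exg1-1*, 8.38 in *rlp44-3* and 12.7 in Col-0, and since these genes are close copies of each other, their single values are uncertain. The 9 *PP2C.D* phosphatase genes, which oppose the pumps, had a median log2 ratio of 0.02 in *exg1-1*, with 4 lower, and of −0.18 in *rlp44-3*, with 6 lower. The counts of lower pumps in both mutants and of lower phosphatases in *exg1-1* were near the share over all genes. In *rlp44-3*, 66.7% of the *SAUR* genes and 66.7% of the phosphatase genes were lower, which in lists this small is also not far from that share. *PP2C.D8* was highest in *exg1-1* relative to Col-0, at a log2 ratio of 0.33, and *PP2C.D1* lowest, at −0.32.

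Whole seedlings hold roots and shoots in proportions that may differ, and in such samples fewer cells of a type and less RNA per cell cannot be told apart. Markers of root tissues were lower together with the expansins in *exg1-1*. Of 13 root hair markers, 10 were kept. Of all genes kept, 50.9% were lower in *exg1-1* and 50.1% in *rlp44-3*. Of the 10 root hair markers, 8 were lower in *exg1-1* (median log2 ratio −0.41) and 9 in *rlp44-3* (median −0.30). They summed to 31.8 fitted CPM in *exg1-1*, 36.1 in *rlp44-3* and 46.7 in Col-0. *PRP3*, a proline-rich protein of the root hair wall, was the most abundant of them, at 6.80 fitted CPM in *exg1-1*, 9.38 in *rlp44-3* and 12.9 in Col-0. *RSL4*, a regulator of root hair growth, had 1.19 fitted CPM in *exg1-1*, 0.734 in *rlp44-3* and 0.634 in Col-0. With 13.8 reads per library in *exg1-1*, 8.32 in *rlp44-3* and 5.79 in Col-0, *RSL4* passed the filter only through *exg1-1*. Its higher value there therefore follows in part from the filter. *PRP1*, another proline-rich wall protein, had the largest fold difference of the 10, at 0.686 fitted CPM in *exg1-1*, 1.03 in *rlp44-3* and 2.46 in Col-0. It rested on few reads, with 7.96 per library in *exg1-1*, 11.7 in *rlp44-3* and 22.5 in Col-0. The counting error of its log2 ratio to Col-0 was 0.34 in *exg1-1* and 0.30 in *rlp44-3*. All 7 markers of the root endodermis, the layer that carries the Casparian strip, were lower in *exg1-1* (median −0.38), and 6 of them in *rlp44-3* (median −0.05). They summed to 63.8 fitted CPM in *exg1-1*, 78.9 in *rlp44-3* and 82.5 in Col-0. The most abundant of them, *ESB1*, had a log2 ratio of −0.41 in *exg1-1* and −0.03 in *rlp44-3*.

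Markers of the green shoot lay on the other side. Over all genes kept, the share lower was again 50.9% in *exg1-1* and 50.1% in *rlp44-3*. Of 7 genes of photosynthesis, 6 were higher in *exg1-1*, with a median log2 ratio of 0.16, and 5 were higher in *rlp44-3*, with a median of 0.07. They summed to 43000 fitted CPM in *exg1-1*, 40535 in *rlp44-3* and 38026.5 in Col-0. *RCA*, which activates the enzyme that fixes carbon dioxide, had the highest of these ratios in *exg1-1*, at 0.38. Of 7 markers of secondary wall xylem, 6 were kept, of which 4 were higher in *exg1-1* (median 0.06) and 5 lower in *rlp44-3* (median −0.24), and they summed to 87.8 fitted CPM in *exg1-1*, 70.4 in *rlp44-3* and 83.8 in Col-0. *IRX5*, a cellulose synthase of the secondary wall, had a log2 ratio of 0.31 in *exg1-1* and −0.19 in *rlp44-3*. Of 10 seed markers, 5 were kept, and all 5 were lower in both mutants, with *CRC* at the table's lowest value in *exg1-1*. All of the 5 except *OLEO2* passed the filter only through Col-0, so they had to be lower in both mutants. The 5 summed to 2.79 fitted CPM in *exg1-1*, 1.101 in *rlp44-3* and 17.4 in Col-0. *OLEO2*, an oil body protein of seeds, had 2.00 in *exg1-1*, 0.563 in *rlp44-3* and 5.55 in Col-0. The part of these root, shoot and seed markers in the expansin differences was not tested.

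**Figure D4:**
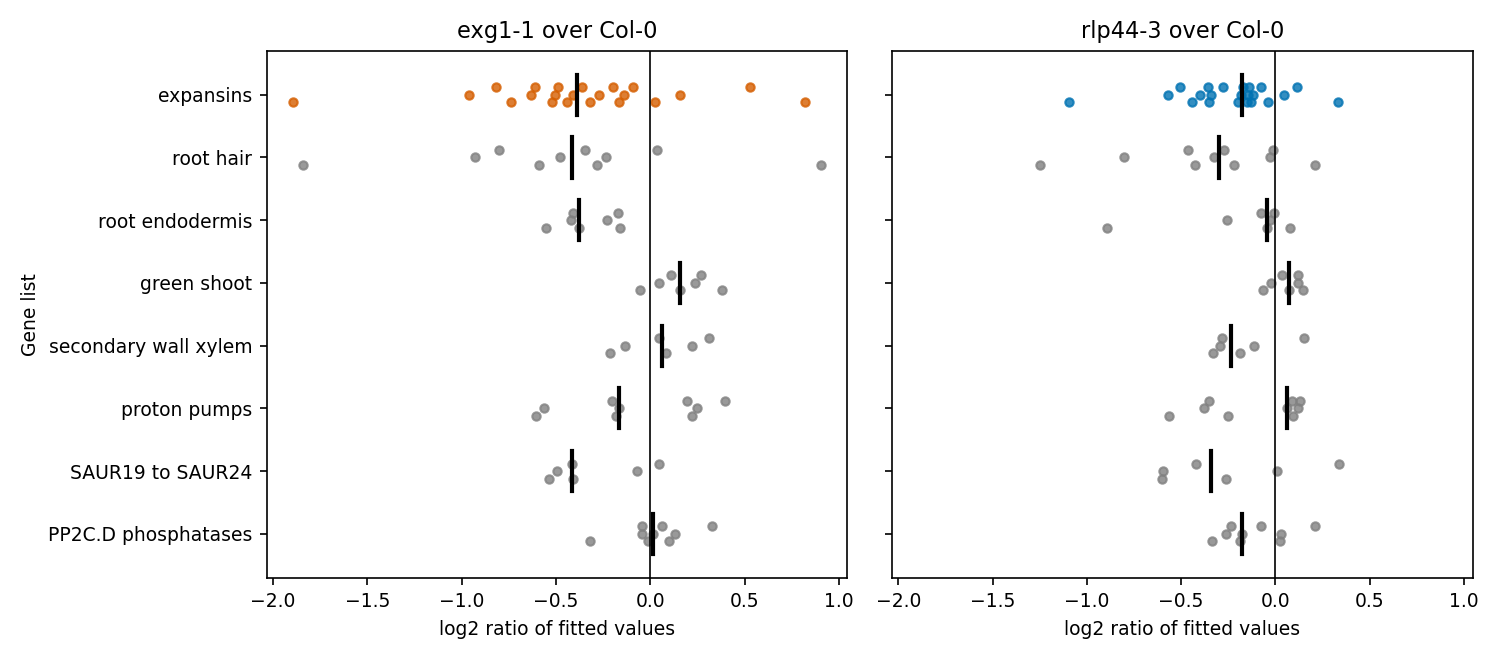
Log2 ratio (horizontal) of each gene of 8 lists for *exg1-1* over Col-0 and *rlp44-3* over Col-0, with expansins in colour, the other lists in grey, and a black bar at each list's median. In *exg1-1* the medians of the expansins (−0.39), root hair markers (−0.41), endodermis markers (−0.38) and *SAUR19* to *SAUR24* (−0.41) lie left of 0, and that of the green shoot markers (0.16) lies right of it.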

How the data were processed

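Polyadenylated RNA was sequenced from 9 libraries, 3 per genotype, and samples were grouped by their labels. Per the labels and the methods, the authors used fastp for trimming, HISAT2 for mapping to TAIR10, HTSeq for counting per gene and DESeq2 for comparisons. None of the sources used here gives tool versions. The deposited signal values, which the authors named raw counts, were fitted values on the scale of reads: none of 25717 genes had a whole value (within 1e-06), and the columns of a genotype were multiples of each other. The count tests that had been planned could therefore not be run. Another 3 columns, of samples not analysed here, were not used, and 7624 rows held no values.

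The 3 columns of a genotype were summed. Genes with at least 10 in all 3 columns of at least 1 genotype were kept (19281). Genotypes were scaled by a trimmed mean of log ratios (trimming 30% of log ratios and 5% of levels at each end), which gave log2 scales against Col-0 of 0.35 for *exg1-1* and 0.31 for *rlp44-3*, and the step was tested on simulated data. The standard error of a log2 ratio assumed Poisson counting, and intervals are 95%. Levels were divided by exon length from RefSeq's TAIR10.1. The table holds no coordinates, so it was joined to TAIR10.1 by locus identifier.

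The members and the lists of markers and acid growth genes were chosen with earlier results of these data known. Every expansin above the filter is described. Each other list is represented by at most 3 genes, taken from those with the highest level, the largest rise or the largest fall. Not every such gene is named. Alternatives were other scalings, filters, fold thresholds and omission of each library. Python 3.11.15, numpy 2.4.6, pandas 2.3.3, Biopython 1.88 and matplotlib 3.10.9 were used.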

Additional observations from a re-analysis of the deposited data

Results flagged for a closer look

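Of the 22 genes, 5 lay on opposite sides of Col-0 in the 2 mutants. The share of all genes that did so was not computed, so this count is no result about the family. *EXPA17* had a log2 ratio of 0.82 in *exg1-1* and −0.28 in *rlp44-3*. *EXPA16* had 0.02 in *exg1-1* and −0.50 in *rlp44-3*, and *EXLA2* had 0.16 in *exg1-1* and −0.14 in *rlp44-3*. *EXPA6* had −0.14 in *exg1-1* and 0.05 in *rlp44-3*, and *EXPA13* had −0.20 in *exg1-1* and 0.12 in *rlp44-3*. The difference between the mutants was not tested for any of them, because the table holds no spread between replicates.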

How the results depend on the processing

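Median log2 ratios of the members described kept their sign under every scaling and filter tried, from −0.43 to −0.36 for *exg1-1* over Col-0, from −0.18 to −0.17 for *rlp44-3* over Col-0 and from −0.26 to −0.17 for *exg1-1* over *rlp44-3*. Counts past a fold depended on the threshold. In place of 6 genes at least 1.5-fold lower in *exg1-1* than in Col-0, 12 passed the lowest threshold tried (0.322 on the log2 scale) and 1 passed 2-fold, and 3 of 14 passed 1.5-fold where at least 100 was required in every column of 1 genotype. In *rlp44-3* over Col-0, in place of 1 gene, 8 passed the lowest threshold, 4 of 26 passed 1.5-fold without a filter, and 0 did with at least 10 in every column or at least 100 in every column of 1 genotype. Under the last filter 11 of 14 were lower in *rlp44-3*, in place of 19 of 22, since fewer genes were described. In *exg1-1* over *rlp44-3*, in place of 3 genes, 7 passed the lowest threshold, 0 passed 2-fold and 1 passed with at least 100. Under upper quartile scaling and library totals *EXPA16* changed sign in *exg1-1* over Col-0, as did *EXPA10* and *EXPA11* in *exg1-1* over *rlp44-3*. Omitting a library changed no count, which says nothing about replicate error. No paired analysis was possible because the columns hold no spread between replicates. The members with the fewest reads, *EXPA7*, *EXPA16*, *EXPA17*, *EXPA18*, *EXPA20* and *EXLB1*, are limited by depth.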
